A study of Mus musculus with 20 samples.

Results

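The response of WT mouse liver to CMP013, an inhibitor of the β-secretase BACE1, was taken from the 10 WT samples of a series of 20: 5 livers of treated mice were set against 5 livers of vehicle mice, with every probe set of the array. All were male C57BL/6 mice with the genotype PXR+/+, aged 9 weeks at the first dose. They received CMP013 at 150 mg/kg/day, or vehicle (0 mg/kg), by oral gavage every 24 h, and livers were taken at 96 h. RNA of each liver was hybridized to 1 array, so each group holds 5 animals. The other 10 samples were vehicle and CMP013 livers of PXR-KO mice (PXR-/-, C57BL/6NTac by 1 label) at the same dose and time. These PXR-KO samples were used here for comparison and for the choice of 1 probe set per gene. BACE1 cuts the amyloid precursor protein, and the study asked which liver effects of the inhibitor need the pregnane X receptor.

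The pregnane X receptor (PXR, Nr1i2) is a nuclear receptor of the hepatocyte that binds drugs and other foreign compounds. With the related receptor CAR (Nr1i3) it switches on cytochromes P450, conjugating enzymes and transporters, and its activation in rodents enlarges the liver. Beyond drug clearance, hepatocytes make most plasma proteins, the urea cycle enzymes, bile acids and much of the body's cholesterol, while Kupffer, endothelial and stellate cells line the sinusoids around them.

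Each deposited value sets 1 animal against the average of its genotype's 5 vehicle animals, and is given here on the log2 scale, so that 0 is the vehicle mean and 1 is a 2-fold increase. Values of single animals are listed in the order of mice 1 to 5. A gene is said to rise or fall where its probe set passed limma's moderated test over all 45037 probe sets at an adjusted p under 0.05, and the log2 fold change is the CMP013 mean minus the vehicle mean with its standard error (SE). Because the values are ratios, the level of a gene, its signal over background and the tissue label itself could not be checked by marker levels. In bulk liver, fewer cells of a type, less RNA per cell and a larger share of RNA from other cells cannot be told apart. The study reported heavier livers and enlarged hepatocytes in WT mice given CMP013. The part of this growth in the values was not tested. The standard deviation (SD) of the log2 ratios of an array was 0.334 to 0.395 in vehicle mice and 0.587 to 0.611 in CMP013 mice 1 to 4, and 0.704 in CMP013 mouse 5. Vehicle mice 3 and 4 deviated together (r = 0.11 across probe sets, against -0.28 to -0.13 for the other 9 vehicle pairs, which share the vehicle mean), and the count of called members without these 2 animals is given with each gene group.

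Of 18193 genes, each measured by 1 probe set, 3158 (17.4%) passed the test, 1745 higher (9.59%) and 1413 lower (7.77%), and over all probe sets the share was 14.4% (7.67% higher, 6.72% lower). Most changes were small. The log2 fold change was under 0.5 in size at 1123 of the called genes and between 0.5 and 1 at 1450. It lay between 1 and 2 at 508 genes (300 higher, 208 lower) and between 2 and 3 at 56 (42 higher, 14 lower). At 21 genes it was 3 or more, and 19 of these rose. The largest changes were thus mostly increases, whereas the 2 directions were closer to balance below 2-fold.

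Among called genes the spread between treated mice was wider at larger changes, up to a log2 fold change of 3. A small change passes the test only where the spread is small, so the call itself favours this order. The median SD over the 5 CMP013 mice was 0.104 at genes with a log2 fold change under 0.5 in size, 0.189 between 0.5 and 1, 0.352 between 1 and 2, and 0.426 between 2 and 3, and it was 0.313 at the 21 genes of 3 or more. In vehicle mice it was 0.0944, 0.161, 0.275, 0.363 and 0.403 at the same genes. Of the 3158 called genes, 1909 (60.4%) were past 0.32 on the log2 scale, in the direction of the change, in all 5 CMP013 mice, 674 in 4 and 336 in 3. The share past it in all 5 was 18.4% at sizes under 0.5, 78.3% between 0.5 and 1, 96.3% between 1 and 2, and 100% above 2, a share that a fixed threshold makes rise with the size of the change. Over the called genes the median SD was 0.162 in CMP013 and 0.141 in vehicle mice. Among the 674 genes past the threshold in 4 mice, the animal that stayed short was mouse 1 at 158 genes, mouse 2 at 100, mouse 3 at 144, mouse 4 at 140 and mouse 5 at 132, so no single animal made most of the exceptions. The 2 directions differed in which mouse went furthest. At the 361 genes that rose at least 2-fold, mouse 2 had the largest value of the 5 at 123. At the 224 that fell at least 2-fold, mouse 5 had the lowest value at 89 and mouse 2 at 58.

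**Figure D1:**
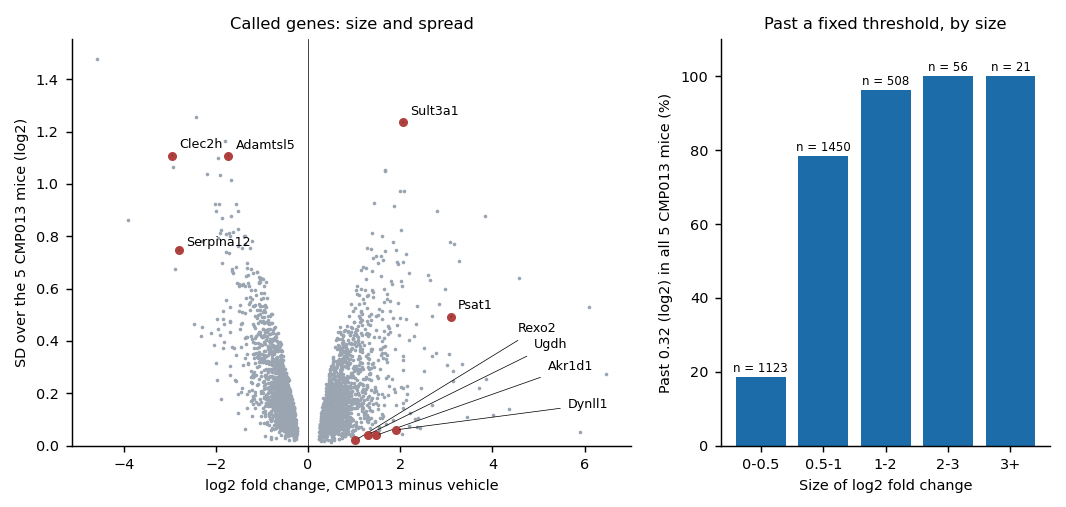
Left, each point is 1 of 3158 called genes, with its log2 fold change on the x axis and the SD over the 5 CMP013 mice (log2) on the y axis, and named genes in red. Right, bars give the share of called genes past 0.32 on the log2 scale in all 5 CMP013 mice by size of the log2 fold change, with the number of genes above each bar, from 18.4% to 100%, where the fixed threshold itself favours larger changes.

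The genes with the smallest spread among those changed at least 2-fold rose by nearly the same amount in every animal. Rexo2, a mitochondrial RNA exonuclease, had log2 ratios of -0.14, 0.13, 0.00, 0.02 and -0.01 in vehicle mice and 1.02, 1.06, 1.02, 1.01 and 1.04 in CMP013 mice (log2 fold change 1.03, SE 0.08, adjusted p = 4.46e-05). Akr1d1, the 5β-reductase of bile acid and steroid synthesis, had 0.07, -0.34, 0.18, 0.05 and 0.03 against 1.51, 1.5, 1.46, 1.47 and 1.41 (1.47, SE 0.10, adjusted p = 3.53e-05). Ugdh, which makes the UDP-glucuronic acid used in glucuronidation, had -0.10, 0.07, -0.12, 0.01 and 0.16 against 1.26, 1.35, 1.26, 1.31 and 1.28 (1.29, SE 0.08, adjusted p = 2.02e-05). All 5 treated values of each gene lie far above all 5 vehicle values, and the treated animals differ less than the vehicle animals do. These genes were chosen for the smallest spread over the treated mice, so the contrast in spread comes from the choice. Ybey, a mitochondrial ribonuclease, and Dynll1, a dynein light chain, had similarly small spreads, with log2 fold changes of 1.53 (SE 0.11, adjusted p = 3.74e-05) and 1.91 (SE 0.10, adjusted p = 5.71e-06).

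At the other end stood genes whose size depended on the animal. Sult3a1, a sulfotransferase, had -0.07, 0.18, 0.32, -0.33 and -0.11 in vehicle mice and 0.93, 3.86, 1.31, 2.81 and 1.38 in CMP013 mice (log2 fold change 2.06, SE 0.51, adjusted p = 0.0228). The groups do not overlap, but mice 2 and 4 rose far more than mice 1, 3 and 5, and the call was lost without CMP013 mouse 4 or vehicle mouse 1, 4 or 5 (adjusted p 0.016 to 0.0542 over the 10 animals left out in turn), without vehicle mice 3 and 4 together (0.0958) and with quantile normalization (0.0543). Clec2h, a C-type lectin, fell in every CMP013 mouse (0.78, -0.53, -0.11, -0.47 and 0.15 against -1.68, -3.59, -2.53, -2.58 and -4.56, log2 fold change -2.95, SE 0.49, adjusted p = 0.00362). Adamtsl5, a secreted matrix protein, had -0.33, 0.31, -0.51, 0.50 and -0.46 against -2.04, -1.91, -2.43, -2.83 and 0.04 (-1.73, SE 0.48, adjusted p = 0.0389). CMP013 mouse 5 stayed within the vehicle range while the other 4 lay below it. The adjusted p was 0.00147 without that animal, and the call was lost without any 1 of the other 9 animals (up to 0.0861) and without vehicle mice 3 and 4 (0.134). The other probe set of the gene had a log2 fold change of 0.10.

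Below the P450 genes Cyp2b10 and Cyp2c55, large rises included a stress gene, a reductase and a transporter. Gadd45b, a stress-induced regulator of MAP kinase signalling, had 0.39, 0.41, -0.66, -1.16 and 0.53 in vehicle mice and 4.05, 5.03, 4.08, 4.88 and 6.64 in CMP013 mice (log2 fold change 5.03, SE 0.52, adjusted p = 0.000273). The value of mouse 5 is the limit of the scale, so it is a lower bound, and 1 of the gene's 3 probe sets stayed at 0.04. Its relative Gadd45a rose too (1.91, SE 0.33, adjusted p = 0.00423). Gadd45g of the same family fell (-1.71, SE 0.43, adjusted p = 0.0251), with overlapping groups. That call was lost without CMP013 mouse 2 or 3 or vehicle mouse 1, 2 or 3 (up to 0.0588). It was also lost without vehicle mice 3 and 4 together (0.0686) and with quantile normalization (0.149). Cbr3, a carbonyl reductase, had 0.13, 0.03, -0.62, -0.18 and 0.55 against 4.32, 5.26, 4.86, 3.58 and 4.77 (4.58, SE 0.31, adjusted p = 3.24e-05). The hepatic uptake transporter Slco1a4 had 0.18, -1.45, 0.05, 0.25 and -0.08 against 3.36, 3.76, 3.23, 3.69 and 3.51 (3.72, SE 0.30, adjusted p = 7.66e-05). Over these 3 genes the lowest treated value was 3.23 and the highest vehicle value 0.55. The highest changes were named only among genes whose groups do not overlap, so a gap there was set by the choice.

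Among the genes with large falls, Serpina12, a secreted serpin also called vaspin, had -0.31, 0.15, 0.07, 0.17 and -0.09 in vehicle mice and -2.09, -3.92, -2.19, -2.75 and -3.08 in CMP013 mice (log2 fold change -2.80, SE 0.32, adjusted p = 0.000437). Mouse 2 fell furthest. Its groups do not overlap, which the rule that named the lowest genes required. Tent5c, a poly(A) polymerase, fell by 2.82 on the log2 scale (SE 0.47, adjusted p = 0.00345, and 0.0606 with quantile normalization). For Zfp36l2, which binds AU-rich mRNA, and for Fam107a, a stress-induced actin-binding protein, 1 of 3 probe sets each was called, at -3.90 (SE 0.51, adjusted p = 0.000969) and -2.60 (SE 0.46, adjusted p = 0.0046). Over their 3 probe sets the log2 fold changes ran up to -0.02 and -0.10.

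The gene groups below are lists of genes by function, each gene measured by 1 probe set. A list is described by the number of its members that rose or fell, beside 9.59% and 7.77% of all genes, and by its median log2 fold change, beside 0.00 over all genes. With quantile normalization far fewer genes were called (1752 against 6480 probe sets, and 210 against 568 members of lists), so each group's count under it is given too. Of the groups named by the study itself, 4 are given by counts alone. Of 45 proteasome genes 36 rose and 1 fell (32 called without vehicle mice 3 and 4 and 25 with quantile normalization), and of 23 glutathione S-transferases 11 rose and 2 fell (10 and 8 in the same order). Of 91 cell cycle genes 29 rose and 4 fell (21 and 15). Of 37 aminoacyl-tRNA synthetases 13 rose and 2 fell, a count of 15 that was 9 without vehicle mouse 1 or 5, 5 without vehicle mice 3 and 4, and 1 with quantile normalization.

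**Figure D2:**
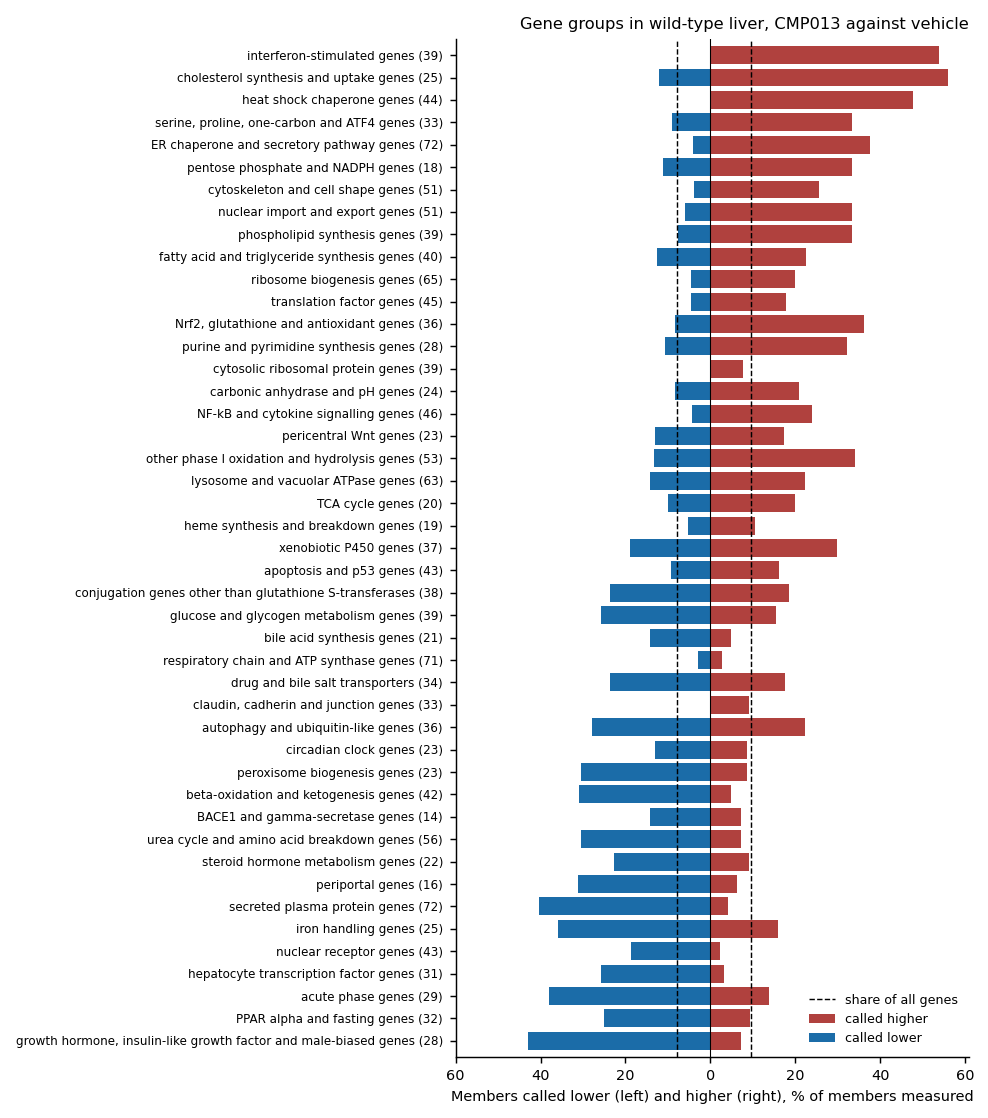
Each row is a gene group with the number of members measured in parentheses, sorted by median log2 fold change, and bars give the percentage of members called higher (right, red) and lower (left, blue) in CMP013 against vehicle mice. Dashed lines mark the shares of all genes, 9.59% higher and 7.77% lower, and the bars of interferon-stimulated, cholesterol and heat shock genes reach furthest to the right.

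Drug-handling genes moved in both directions. Of 37 xenobiotic P450 genes 11 rose and 7 fell (12 called without vehicle mice 3 and 4 and 9 with quantile normalization), with a median of 0.01. The largest rise of all named genes was at Cyp2b10 (6.47, SE 0.17, adjusted p = 5.53e-08), where CMP013 mice 2 and 4 reached the limit of the scale, so its size is a lower bound. Cyp2c55 rose by 5.90 (SE 0.10, adjusted p = 1.3e-09) with an SD of 0.053 over the treated mice. Cyp3a44 (1.69, SE 0.15, adjusted p = 0.000113) and Cyp3a16 (1.85, SE 0.35, adjusted p = 0.00681, and 0.105 with quantile normalization) rose, and their probe sets may share signal with other Cyp3a genes of close sequence. Among 53 other oxidation and hydrolysis genes 18 rose and 7 fell (19 called without vehicle mice 3 and 4 and 18 with quantile normalization). The carboxylesterase Ces2a had 0.07, -0.04, 0.02, 0.02 and -0.06 in vehicle mice and 1.69, 1.58, 1.7, 1.71 and 1.81 in CMP013 mice (1.7, SE 0.08, adjusted p = 1.71e-06), a rise of the same size in every treated animal. The aldo-keto reductase Akr1c19 rose (1.48, SE 0.10, adjusted p = 3.24e-05) and the aldehyde oxidase Aox3 fell (-1.60, SE 0.17, adjusted p = 0.000327).

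Among 38 conjugation genes 7 rose and 9 fell (11 called without vehicle mice 3 and 4 and 8 with quantile normalization), and among 34 transporters 6 rose and 8 fell (8 called without vehicle mice 3 and 4 and 6 with quantile normalization). Besides Ugdh, the rises included Papss2, which makes the sulfate donor of sulfation (1.14, SE 0.08, adjusted p = 3.11e-05). The efflux pumps Abcc3 (1.28, SE 0.10, adjusted p = 6.01e-05), Abcb1a (1.66, SE 0.20, adjusted p = 0.000727) and Abcc2 (0.94, SE 0.10, adjusted p = 0.000242) rose in all 5 CMP013 mice. Heme and bile acid synthesis genes were near the background, with 3 of 19 and 4 of 21 called (2 and 3 without vehicle mice 3 and 4, and 2 of each with quantile normalization). Blvrb, which reduces biliverdin, rose (1.37, SE 0.10, adjusted p = 4.46e-05). Klb, the coreceptor through which FGF15 restrains bile acid synthesis, fell (-1.01, SE 0.09, adjusted p = 0.000134). Slc27a2, a bile acid and fatty acid CoA ligase, fell by 0.41 on the log2 scale (SE 0.07, adjusted p = 0.0029, and 0.0543 with quantile normalization). Of 22 steroid metabolism genes 2 rose and 5 fell (5 called without vehicle mice 3 and 4 and 4 with quantile normalization), among them Sdr42e1 (-1.22, SE 0.12, adjusted p = 0.000179) and Hsd3b2 (-1.09, SE 0.16, adjusted p = 0.00179), both steroid dehydrogenase family members.

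Several genes of thiol chemistry and NADPH supply rose. In the list of Nrf2, glutathione and antioxidant genes 13 of 36 rose and 3 fell (12 called without vehicle mice 3 and 4 and 10 with quantile normalization, median 0.13). Gsr, glutathione reductase, had 0.00, -0.10, 0.05, 0.03 and 0.01 in vehicle mice and 1.52, 1.82, 1.53, 1.58 and 1.60 in CMP013 mice (log2 fold change 1.61, SE 0.08, adjusted p = 5.71e-06). Srxn1, sulfiredoxin, had 0.04, 0.24, -0.03, -0.14 and -0.06 against 1.59, 2.13, 1.84, 1.88 and 2.01 (1.88, SE 0.12, adjusted p = 2.02e-05). Mouse 2 was highest at both, and no treated value came near the vehicle range. Glutaredoxin (Glrx, 1.43, SE 0.11, adjusted p = 6.39e-05) and the glutathione peroxidase Gpx2 (1.65, SE 0.29, adjusted p = 0.00443) rose as well. Of 18 pentose phosphate and NADPH genes 6 rose and 2 fell, with Pgd, which yields NADPH, at 1.15 (SE 0.12, adjusted p = 0.00032). This count of 8 was 3 without CMP013 mouse 2 or vehicle mouse 1, 4 without CMP013 mouse 4 or vehicle mouse 3 or 5, 5 without CMP013 mouse 3 or vehicle mouse 2, 4 without vehicle mice 3 and 4 together, and 2 with quantile normalization.

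Several serine synthesis and amino acid response genes rose, while Chac1, of the same list, fell. Of 33 serine, proline, one-carbon and ATF4 target genes 11 rose and 3 fell (7 called without vehicle mice 3 and 4 and 5 with quantile normalization, median 0.26). Psat1, the transaminase of serine synthesis, had 0.18, 0.19, -0.07, -0.51 and -0.05 in vehicle mice and 2.66, 3.36, 2.73, 2.73 and 3.77 in CMP013 mice (3.10, SE 0.24, adjusted p = 5.19e-05). Chac1, an ATF4 target that degrades glutathione, had -0.17, -0.25, 0.19, -0.11 and 0.33 against -1.73, -2.07, -1.34, -2.15 and -2.63 (-1.98, SE 0.23, adjusted p = 0.000473). Mouse 5 was the furthest from the vehicle mean at both, up at Psat1 and down at Chac1. The glycine transporter Slc6a9 rose (0.77, SE 0.09, adjusted p = 0.000563).

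In the list of purine and pyrimidine synthesis genes 9 of 28 rose and 3 fell (8 called without vehicle mice 3 and 4 and 5 with quantile normalization). Ctps, CTP synthase, had -0.28, 0.70, -0.51, -0.42 and 0.26 in vehicle mice and 2.49, 3.37, 2.08, 3.19 and 3.45 in CMP013 mice (2.96, SE 0.32, adjusted p = 0.000358). The nucleoside diphosphate kinase family gene Nme6 lay between -0.12 and 0.30 in vehicle mice and had 2.31, 2.08, 2.36, 1.99 and 2.01 in CMP013 mice (2.12, SE 0.12, adjusted p = 7.69e-06). The treated mice spread widely at Ctps and little at Nme6, with no overlap of groups at either. Nme1 (1.16, SE 0.08, adjusted p = 4.37e-05) and the salvage enzyme Aprt (1.09, SE 0.11, adjusted p = 0.000233) rose too.

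For ribosome biogenesis 13 of 65 genes rose and 3 fell, with Rrp15 at 1.08 (SE 0.15, adjusted p = 0.00115) and Nhp2, a subunit of the RNA pseudouridine synthase, at 0.88 (SE 0.12, adjusted p = 0.00108). The count of 16 was 10 without vehicle mouse 4, 6 without vehicle mice 3 and 4, and 3 with quantile normalization. Nuclear import and export genes gave 17 of 51 higher and 3 lower, a count of 20 that was 12 without vehicle mouse 3, 6 without vehicle mice 3 and 4, and 3 with quantile normalization. Ran, the GTPase that drives this transport, had -0.06, 0.16, -0.17, 0.03 and -0.04 in vehicle mice and 0.90, 1.24, 0.79, 0.78 and 1.46 in CMP013 mice (1.05, SE 0.15, adjusted p = 0.00137), and all 6 of its probe sets were called higher. The importin Ipo4 rose (0.97, SE 0.08, adjusted p = 7.92e-05). Of 45 translation factor genes 8 rose and 2 fell (6 called without CMP013 mouse 2 or vehicle mouse 1, 3 without vehicle mice 3 and 4, and 1 with quantile normalization), with Eif2b3 at 0.68 (SE 0.09, adjusted p = 0.00118) and the cap-binding factor Eif4e at 0.46 (SE 0.08, adjusted p = 0.00323, and 0.0699 with quantile normalization). The cytosolic ribosomal protein genes did not share in these counts: 3 of 39 passed the test, all higher, none past 0.32 on the log2 scale in all 5 mice, 1 passed without CMP013 mouse 2 or vehicle mouse 3 or 4, and 0 passed without vehicle mice 3 and 4 or with quantile normalization.

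Heat shock chaperones were called in 1 direction. Of 44 genes 21 were called, all higher (12 without vehicle mice 3 and 4 and 9 with quantile normalization), with a median of 0.39. Hspe1, the mitochondrial chaperonin of 10 kDa, had -0.24, -0.02, -0.02, -0.06 and 0.21 in vehicle mice and 1.03, 1.13, 0.88, 1.00 and 1.02 in CMP013 mice (1.04, SE 0.10, adjusted p = 0.00015). The small heat shock protein Hspb1 (1.07, SE 0.16, adjusted p = 0.00189), the Hsp70 cochaperone Bag2 (0.93, SE 0.12, adjusted p = 0.000945), the Hsp90 partner Chordc1 (0.80, SE 0.10, adjusted p = 0.000736) and the chaperonin subunit Cct7 (0.73, SE 0.07, adjusted p = 0.000233) rose in all 5 CMP013 mice. In the RefSeq promoters (GRCm38.p6, 250 bases before to 50 after a start site), the heat shock factor motif (GAA, any 2 bases, TTC, any 2 bases, GAA), searched on both strands, occurs in 0.603% of 32851 promoters. With any promoter of a gene counted, as for the listed genes, it occurs at 0.662% of 27025 genes. It occurs in 5 of the 18 risen genes that have a promoter entry, Hspd1, Hspe1, Hsph1, Dnajb6 and Chordc1, and in none of the 19 others with an entry. Hspd1 and Hspe1 lie on opposite strands of chr1 and hold the same overlapping pair of matches, so 1 shared site may be counted at both. The stretches of Hspe1 (chr1:55088039-55088096, + strand) and Dnajb6 (chr5:29735832-29735884, + strand) are shown because both genes rose and hold the motif before the start site, with the motif in capitals. At Hspe1 2 overlapping matches, 1 on each strand, make 1 run of capitals, and at Dnajb6 the match nearer the start site is shown.
Hspe1: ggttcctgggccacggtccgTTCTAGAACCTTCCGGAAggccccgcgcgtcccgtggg
Dnajb6: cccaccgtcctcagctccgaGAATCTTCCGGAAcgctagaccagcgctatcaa

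Genes of the endoplasmic reticulum (ER) and secretory pathway rose in larger number than they fell, 27 against 3 of 72 (11 called without vehicle mice 3 and 4 and 4 with quantile normalization, median 0.24). Srprb, the membrane anchor of the signal recognition particle receptor, had -0.19, 0.16, -0.11, 0.21 and -0.14 in vehicle mice and 1.38, 1.31, 1.49, 1.2 and 1.34 in CMP013 mice (1.36, SE 0.11, adjusted p = 6.39e-05). Srp19, a protein of the particle itself, rose by 0.71 (SE 0.08, adjusted p = 0.000485), the ER cochaperone Dnajb9 by 1.2 (SE 0.16, adjusted p = 0.000834) and the retrieval receptor Kdelr3 by 0.81 (SE 0.13, adjusted p = 0.00239, and 0.0558 with quantile normalization). Derl3, a component of ER-associated degradation, had -0.10, -0.08, -0.37, -0.38 and 0.22 against -0.60, -0.89, -1.03, -1.12 and -1.07 (-0.80, SE 0.14, adjusted p = 0.00522, and 0.0818 with quantile normalization). The long ER stress response element, searched as CCAAT, any 9 bases, CCACG on both strands, occurs in 0.119% of promoters. With any promoter of a gene counted, it occurs at 0.137% of genes. Of the 10 listed genes that hold it 1 rose (Syvn1) and 1 fell (Derl3), and their median log2 fold change was 0.11. Of the 50 with an entry and without it 19 rose and 2 fell (median 0.24).

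Most cholesterol genes rose. Of 25 synthesis and uptake genes 14 rose and 3 fell (14 called without vehicle mice 3 and 4), with a median of 0.46, and 1 was called with quantile normalization. All 5 probe sets of Hmgcs1, the cytosolic HMG-CoA synthase, were called higher, at 0.60 to 3.40 (SE 0.41 and adjusted p = 0.000619 at the largest). Mvd, which makes isopentenyl diphosphate, had -0.06, -0.07, 0.30, 0.36 and -1.12 in vehicle mice and 1.37, 1.03, 1.27, 1.17 and 1.33 in CMP013 mice (1.35, SE 0.25, adjusted p = 0.00628). The 5 treated mice were alike, and vehicle mouse 5 lay well below the other 4. Further along the pathway, Fdft1 (1.09, SE 0.20, adjusted p = 0.00618), Sqle (0.95, SE 0.17, adjusted p = 0.00512), Cyp51 (0.63, SE 0.10, adjusted p = 0.00299) and Dhcr7 (0.76, SE 0.11, adjusted p = 0.00163) rose. Vehicle mouse 5 was the lowest vehicle animal at Fdft1 (-0.53), Cyp51 (-0.30) and Dhcr7 (-0.33) too. Over all 25 genes the median was -0.30 to 0.12 in vehicle mice and 0.42 to 0.62 in CMP013 mice. Mylip, a ubiquitin ligase that removes the LDL receptor, had 0.11, -0.30, -0.03, 0.07 and -0.11 against -1.51, -1.21, -1.53, -1.05 and -0.96 (-1.20, SE 0.14, adjusted p = 0.000495), below the vehicle range in every treated animal. With quantile normalization the adjusted p was 0.0837 for Mvd, 0.192 for Fdft1, 0.126 for Sqle, 0.0909 for Cyp51 and 0.0543 for Dhcr7. The sterol response motif TCACNCCAC, searched on both strands, occurs in 1.24% of promoters and, with any promoter of a gene counted, at 1.44% of genes. Among the listed genes with an entry, it occurs in 1 of 11 that rose (Hmgcs1) and none of 10 others. Its stretch (chr13:119690194-119690242, + strand) is shown for that reason, with the motif in capitals.
Hmgcs1: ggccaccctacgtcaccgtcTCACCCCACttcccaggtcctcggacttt

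Other lipid synthesis genes moved less uniformly. In the list of fatty acid and triglyceride synthesis 9 of 40 rose and 5 fell (8 called without vehicle mice 3 and 4 and 3 with quantile normalization). Elovl1, an elongase of saturated very long chains, rose (0.96, SE 0.13, adjusted p = 0.00136), as did the monoacylglycerol acyltransferase Mogat2 (1.39, SE 0.24, adjusted p = 0.00472), while Elovl5, an elongase of polyunsaturated chains, fell (-0.97, SE 0.14, adjusted p = 0.00149). With quantile normalization Elovl1 (0.0534) and Mogat2 (0.0931) no longer passed. Of 39 phospholipid genes 13 rose and 3 fell (8 without vehicle mice 3 and 4 and 5 with quantile normalization). Cds2, which makes CDP-diacylglycerol, had -0.13, 0.12, 0.18, -0.05 and -0.18 in vehicle mice and 0.82, 0.85, 0.84, 0.95 and 0.86 in CMP013 mice (0.88, SE 0.09, adjusted p = 0.000297). The phospholipases Pla2g12a (1.67, SE 0.23, adjusted p = 0.00132) and Pla2g6 (1.33, SE 0.11, adjusted p = 7.15e-05) rose.

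Genes of fat breakdown fell more often than they rose. Of 42 beta-oxidation and ketogenesis genes 13 fell and 2 rose (8 called without vehicle mice 3 and 4 and 6 with quantile normalization, median -0.15). Acadsb, a dehydrogenase of short branched acyl-CoA, had -0.16, -0.29, -0.10, -0.01 and 0.12 in vehicle mice and -1.22, -1.66, -1.15, -1.35 and -1.50 in CMP013 mice (-1.28, SE 0.12, adjusted p = 0.000156). Etfdh, which passes electrons from these dehydrogenases to ubiquinone (-0.67, SE 0.10, adjusted p = 0.00212), Acad8 (-0.63, SE 0.08, adjusted p = 0.000692) and Acat1 (-0.62, SE 0.09, adjusted p = 0.00187) fell. The list of PPAR alpha and fasting genes had 8 of 32 lower and 3 higher with a median of -0.36, and Cyp4v3 fell by 1.43 on the log2 scale (SE 0.21, adjusted p = 0.00184). Its count of 11 was 6 without CMP013 mouse 1 or 3 or vehicle mouse 3, 7 without vehicle mouse 1 or 4, 2 without vehicle mice 3 and 4, and 2 with quantile normalization. Of 23 peroxisome genes 7 fell and 2 rose (3 called without vehicle mice 3 and 4 and 3 with quantile normalization), with the glycolate oxidase Hao1 at -0.85 (SE 0.14, adjusted p = 0.00385) and urate oxidase, Uox, at -0.48 (SE 0.09, adjusted p = 0.00569).

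Of 56 urea cycle and amino acid breakdown genes 17 fell and 4 rose (13 called without vehicle mice 3 and 4 and 10 with quantile normalization, median -0.16). Got1, the cytosolic aspartate aminotransferase, had -0.11, -0.24, 0.10, 0.28 and -0.05 in vehicle mice and -1.93, -2.0, -1.25, -1.75 and -1.56 in CMP013 mice (-1.70, SE 0.16, adjusted p = 0.000152). Cbs, the first enzyme of transsulfuration (-1.07, SE 0.10, adjusted p = 0.000124), and Amdhd1 of histidine breakdown (-1.19, SE 0.10, adjusted p = 9.99e-05) fell in every treated animal. Of 20 TCA cycle genes 4 rose and 2 fell (5 called without vehicle mice 3 and 4 and 1 with quantile normalization). Glucose and glycogen genes split, with 6 of 39 higher and 10 lower (9 called without vehicle mice 3 and 4 and 5 with quantile normalization). Ldha, a lactate dehydrogenase subunit, had -0.01, 0.08, 0.02, -0.01 and -0.10 against -0.78, -0.97, -0.73, -0.78 and -0.77 (-0.80, SE 0.08, adjusted p = 0.000202), and pyruvate carboxylase, Pcx, fell (-0.56, SE 0.08, adjusted p = 0.00114). The triokinase Tkfc, which acts in fructose breakdown, rose (1.28, SE 0.14, adjusted p = 0.000405). Respiratory chain and ATP synthase genes were called at 4 of 71 (5.63%), 2 higher and 2 lower, beside 17.4% of all genes, and the count was 2 or 3 with any 1 animal left out and 0 without vehicle mice 3 and 4 or with quantile normalization.

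**Figure D3:**
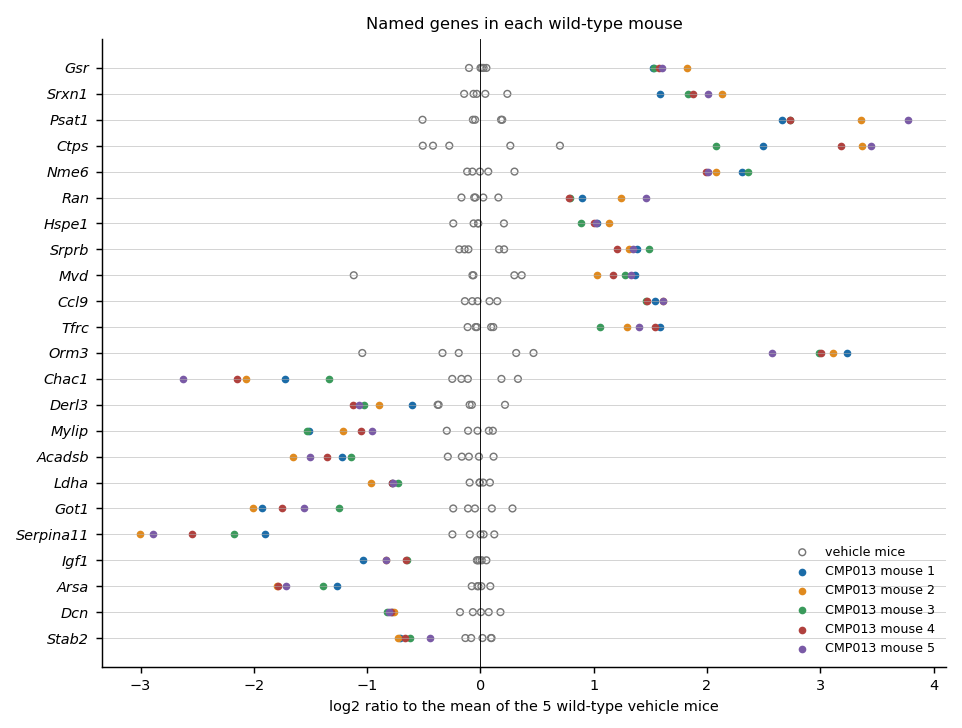
Log2 ratio to the mean of the 5 WT vehicle mice on the x axis for 23 named genes, 1 per row, with open circles for the 5 vehicle mice and filled circles, coloured by animal, for the 5 CMP013 mice. At each of these genes the filled and open circles do not overlap, and the spread of the filled circles is widest at Ctps and narrow at Dcn and Ccl9.

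Plasma protein genes, the secreted products of hepatocytes, fell far more often than they rose. Of 72 plasma protein genes 29 fell and 3 rose (19 called without vehicle mice 3 and 4 and 18 with quantile normalization), the median was -0.21, and CMP013 and vehicle mice did not overlap at 50 of the 72 (18.6% of all genes did not overlap). Serpina11, a serpin of the alpha-1-antitrypsin cluster, had 0.00, -0.25, 0.03, 0.12 and -0.09 in vehicle mice and -1.90, -3.0, -2.18, -2.54 and -2.89 in CMP013 mice (-2.47, SE 0.20, adjusted p = 8.29e-05). Coagulation factor XI, F11 (-1.50, SE 0.26, adjusted p = 0.00416), complement C9 (-1.43, SE 0.26, adjusted p = 0.0055), the ribonuclease angiogenin, Ang (-1.11, SE 0.16, adjusted p = 0.00147), and extracellular matrix protein 1, Ecm1 (-0.94, SE 0.08, adjusted p = 9.39e-05), fell, and complement C2 rose (1.01, SE 0.09, adjusted p = 0.000113). At the 29 genes that fell, mouse 2 had the lowest value at 21, and mice 1 and 3 had the smallest response at 11 each.

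Acute phase genes fell more often than they rose, 11 against 4 of 29 (8 called without vehicle mice 3 and 4 and 6 with quantile normalization, median -0.26), but the largest change was a rise. Orm3, an α1-acid glycoprotein, had -0.19, -1.04, -0.34, 0.32 and 0.47 in vehicle mice and 3.24, 3.11, 2.99, 3.01 and 2.58 in CMP013 mice (3.14, SE 0.27, adjusted p = 9.11e-05), and its probe set may share signal with the other Orm genes of close sequence. Apcs, serum amyloid P, rose (0.84, SE 0.11, adjusted p = 0.000916), and the interleukin 1 receptor subunit Il1rap fell (-0.85, SE 0.09, adjusted p = 0.000233), called at 2 of its 5 probe sets. Growth hormone, insulin-like growth factor and male-biased genes had the lowest median of the function lists, -0.55, with 12 of 28 lower and 2 higher (7 called without vehicle mice 3 and 4 and 8 with quantile normalization). Igf1 had -0.03, 0.01, -0.01, -0.02 and 0.05 against -1.04, -0.84, -0.65, -0.65 and -0.84 (-0.80, SE 0.09, adjusted p = 0.000485), and all 4 of its probe sets were called lower. Igfals, which holds IGF1 in the circulation, fell (-1.20, SE 0.13, adjusted p = 0.000345) and the binding protein Igfbp2 rose (0.79, SE 0.09, adjusted p = 0.000612). The list's median over members was -0.32, -0.52, -0.35, -0.59 and -0.69 in CMP013 mice 1 to 5 and -0.06 to 0.08 in vehicle mice.

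Liver zonation genes were called on both sides. Of 23 pericentral genes 4 rose and 3 fell, a count of 7 that was 4 without vehicle mouse 3, 2 without vehicle mice 3 and 4, and 1 with quantile normalization. Of 16 periportal genes 1 rose and 5 fell (6 called without vehicle mice 3 and 4 and 5 with quantile normalization). Transcription factor genes mostly fell where they were called. Of 31 hepatocyte transcription factor genes 8 fell and 1 rose (7 called without vehicle mice 3 and 4 and 4 with quantile normalization, median -0.23). Atoh8 had 0.11, -0.38, 0.20, -0.28 and -0.58 in vehicle mice and -2.49, -1.72, -1.63, -0.79 and -2.0 in CMP013 mice (-1.54, SE 0.29, adjusted p = 0.00645), with mouse 4 nearest to the vehicle range. The glucocorticoid-responsive factors Klf9 (-1.03, SE 0.11, adjusted p = 0.00027) and Klf15 (-0.87, SE 0.13, adjusted p = 0.00175) fell. Of 43 nuclear receptor genes 8 fell and 1 rose, a count of 9 that was 5 without vehicle mouse 3, 2 without vehicle mice 3 and 4 and 0 with quantile normalization. The thyroid hormone receptor Thra fell (-0.52, SE 0.09, adjusted p = 0.00475, and 0.0909 with quantile normalization), as did the glucocorticoid receptor Nr3c1 (-0.42, SE 0.09, adjusted p = 0.0116, and 0.136 with quantile normalization), at 1 of its 6 probe sets.

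Neither xenobiotic receptor gene rose. PXR (Nr1i2) had -0.20, -0.15, 0.17, 0.16 and 0.06 in vehicle mice and -0.21, 0.19, 0.15, 0.04 and 0.25 in CMP013 mice (0.08, SE 0.12, adjusted p = 0.747), with overlapping groups. CAR (Nr1i3) had 0.21, 0.15, 0.16, -0.06 and -0.23 against -1.14, -0.48, -0.60, -0.92 and -0.16 (-0.70, SE 0.18, adjusted p = 0.0283). CMP013 mouse 5 lay within the vehicle range, and the call was lost without CMP013 mouse 3 or 4 or vehicle mouse 1, 2 or 3 (0.0103 to 0.0694 over the 10 animals left out in turn), without vehicle mice 3 and 4 (0.11) and with quantile normalization (0.114). Of 23 circadian clock genes 5 were called, 2 higher and 3 lower, with the cell cycle kinase gene Wee1, a clock output, at 1.61 (SE 0.20, adjusted p = 0.000766). The count was 2 without vehicle mouse 1 or 3, 3 without CMP013 mouse 1 or 2 or vehicle mouse 4 or 5, and 1 without vehicle mice 3 and 4 or with quantile normalization.

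Most interferon-stimulated genes rose, with the highest median of the function lists. Of 39 genes 21 rose and none fell (15 to 21 called with 1 animal left out, 8 without vehicle mice 3 and 4, 9 with quantile normalization), and the median was 0.60. Ifit1, which binds viral RNA, had 0.33, -0.08, -0.38, -0.06 and 0.03 in vehicle mice and 1.96, 1.29, 3.07, 1.53 and 2.31 in CMP013 mice (2.06, SE 0.30, adjusted p = 0.00185). Oasl1, an oligoadenylate synthetase-like gene, had 0.05, 0.37, -0.60, 0.15 and -0.22 against 1.76, 1.05, 2.71, 1.44 and 1.92 (1.83, SE 0.29, adjusted p = 0.00296). Rsad2, viperin, had -0.08, 0.28, -0.35, 0.02 and 0.03 against 1.10, 0.92, 2.57, 1.33 and 2.14 (1.64, SE 0.30, adjusted p = 0.00627). In each of the 3 genes mouse 3 was highest and mouse 2 lowest of the treated mice, without overlap with the vehicle group. At all 21 risen genes mouse 3 had the highest value of the 5, and mouse 2 had the lowest at 13. Over all 39 genes, called or not, the median log2 ratio was 0.61, 0.29, 1.08, 0.50 and 0.60 in CMP013 mice 1 to 5. In vehicle mice this median lay between -0.20 and 0.25. Isg20 (1.11, SE 0.15, adjusted p = 0.00099), Irgm1 (0.96, SE 0.13, adjusted p = 0.00146) and Ifi35 (0.92, SE 0.10, adjusted p = 0.000426) rose in every treated animal.

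**Figure D4:**
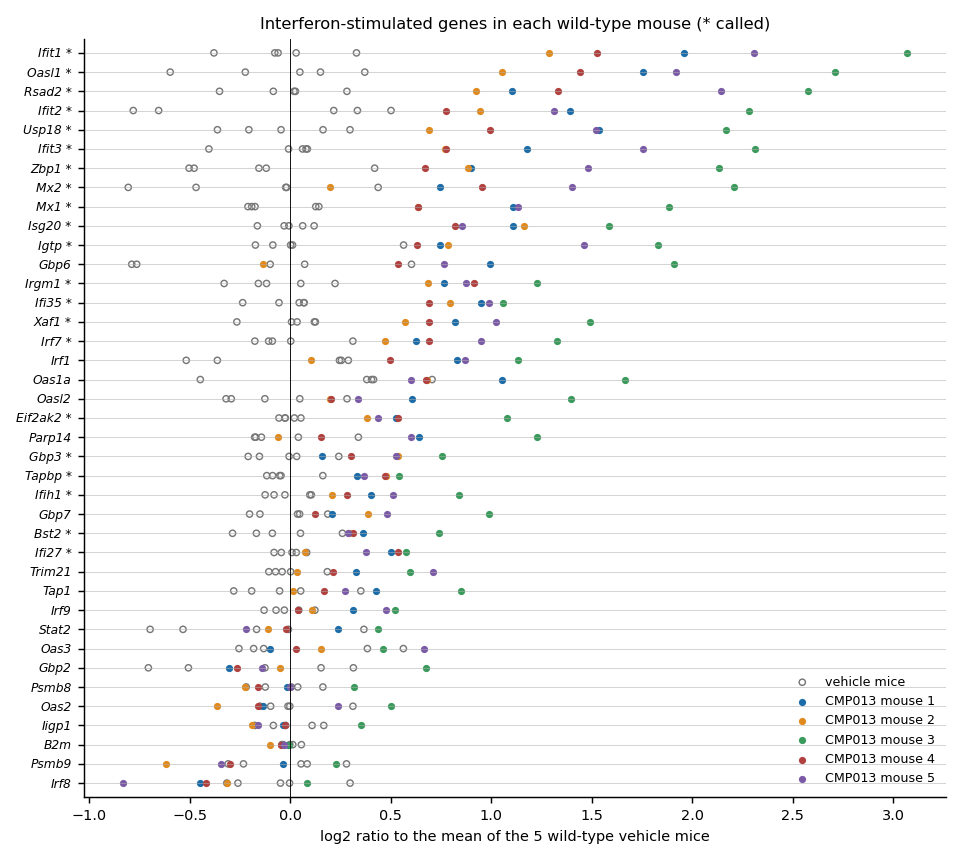
Log2 ratio to the mean of the 5 WT vehicle mice on the x axis for the 39 interferon-stimulated genes, 1 per row, sorted by log2 fold change, with open circles for vehicle mice, filled circles coloured by animal for CMP013 mice and a star for the 21 genes called. CMP013 mouse 3 is the rightmost filled circle in each of the starred rows.

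The interferon response motif (GAAA, any 2 bases, GAAA), searched on both strands, occurs in 3.44% of 32851 RefSeq promoters. With any promoter of a gene counted, as for the listed genes, it occurs at 3.99% of 27025 genes. It occurs in 9 of the 16 risen genes with a promoter entry (Ifit1, Ifit3, Rsad2, Ifih1, Eif2ak2, Gbp3, Igtp, Irgm1 and Bst2) and in 7 of the 14 listed genes with an entry that were not called, so the motif did not part the risen genes from the others. The stretches of Ifit1 (chr19:34640765-34640833, + strand), Rsad2 (chr12:26456543-26456592, - strand) and Ifit3 (chr19:34583353-34583436, + strand) are shown as those of the 3 risen genes of largest log2 fold change that hold it before the start site. They are written 5′ to 3′ on the gene's strand in GRCm38.p6, with the motif in capitals, and all matches shown lie on the opposite strand.
Ifit1: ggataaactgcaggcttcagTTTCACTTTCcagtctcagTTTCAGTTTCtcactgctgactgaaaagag
Rsad2: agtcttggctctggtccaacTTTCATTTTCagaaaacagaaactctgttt
Ifit3: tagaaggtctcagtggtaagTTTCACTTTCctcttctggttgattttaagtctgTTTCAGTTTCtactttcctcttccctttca

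Among 46 NF-kB and cytokine signalling genes 11 rose and 2 fell, a count of 13 that was 8 without vehicle mouse 3 or 5, 6 without vehicle mice 3 and 4, and 3 with quantile normalization. Ccl9, a chemokine of myeloid cells, had 0.15, -0.07, 0.08, -0.14 and -0.03 in vehicle mice and 1.54, 1.61, 1.46, 1.47 and 1.61 in CMP013 mice (1.54, SE 0.08, adjusted p = 7.83e-06), with almost no spread. Cxcl10, an interferon-induced chemokine, had 0.09, 0.43, -0.51, -0.78 and 0.44 against 2.02, 1.64, 3.22, 1.28 and 2.13 (2.12, SE 0.37, adjusted p = 0.00453), and mouse 3 was again the highest. The adhesion molecule Icam1 rose (1.12, SE 0.18, adjusted p = 0.00311, and 0.0571 with quantile normalization). Mouse 3 had the largest value at 7 of the 11 risen genes.

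Lysosomal and autophagy genes moved both ways. Of 63 lysosome and vacuolar ATPase genes 14 rose and 9 fell (17 called without vehicle mice 3 and 4 and 12 with quantile normalization). Ctsd, cathepsin D, had -0.02, 0.04, 0.04, 0.00 and -0.07 in vehicle mice and 0.76, 0.74, 0.70, 0.88 and 0.70 in CMP013 mice (0.76, SE 0.07, adjusted p = 0.000192). Arsa, arylsulfatase A, had 0.09, 0.01, -0.02, -0.08 and -0.03 against -1.26, -1.80, -1.39, -1.79 and -1.72 (-1.59, SE 0.12, adjusted p = 5.3e-05). Both lysosomal hydrolases thus left the vehicle range in every treated mouse, in opposite directions, and the glycogen-degrading enzyme Gaa rose (1.17, SE 0.13, adjusted p = 0.000445). Of 36 autophagy and ubiquitin-like genes 8 rose and 10 fell (10 called without vehicle mice 3 and 4 and 5 with quantile normalization), with Ubxn4, a factor of ER-associated degradation, at 1.17 (SE 0.10, adjusted p = 0.000105) and Map1lc3a, an autophagosome protein, at -0.62 (SE 0.09, adjusted p = 0.00186).

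Iron genes were called at 13 of 25, 4 higher and 9 lower, a count that was 8 without vehicle mouse 1 or 4, 7 without vehicle mice 3 and 4, and 5 with quantile normalization. Tfrc, the transferrin receptor, had -0.11, 0.11, 0.09, -0.04 and -0.03 in vehicle mice and 1.58, 1.29, 1.05, 1.54 and 1.40 in CMP013 mice (1.37, SE 0.11, adjusted p = 8.29e-05), and the iron exporter Slc40a1 fell (-0.85, SE 0.10, adjusted p = 0.000512). Of 51 cytoskeleton and cell shape genes 13 rose and 2 fell (7 called without vehicle mice 3 and 4 and 5 with quantile normalization). The calcium-dependent membrane binder Anxa7 (0.90, SE 0.08, adjusted p = 9.3e-05), the annexin partner S100a10 (0.94, SE 0.09, adjusted p = 0.00018) and the β-tubulin Tubb4b (1.01, SE 0.12, adjusted p = 0.000575) rose. Of 33 claudin, cadherin and junction genes 3 rose (0 called without vehicle mice 3 and 4 and 0 with quantile normalization). Of 43 apoptosis and p53 genes 7 rose and 4 fell (4 called without vehicle mice 3 and 4 and 3 with quantile normalization). Among 24 carbonic anhydrase and pH genes 5 rose and 2 fell (4 called without vehicle mice 3 and 4 and 4 with quantile normalization). Slc16a12, a creatine transporter (1.19, SE 0.09, adjusted p = 6.54e-05), and the anion exchanger Slc4a2 (0.66, SE 0.09, adjusted p = 0.000989) rose, and Car8, a protein related to carbonic anhydrases, fell (-1.02, SE 0.15, adjusted p = 0.00186). The largest fall of this list was at Car14 (-2.90, SE 0.28, adjusted p = 0.000189).

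Marker genes of the cells that line the sinusoids were lower wherever they were called. Of 12 sinusoidal endothelial markers 8 fell and none rose (4 called without vehicle mice 3 and 4 and 3 with quantile normalization), with a median of -0.36. Stab2, a scavenger receptor of these cells, had 0.09, 0.10, 0.02, -0.08 and -0.13 in vehicle mice and -0.71, -0.73, -0.62, -0.66 and -0.44 in CMP013 mice (-0.63, SE 0.09, adjusted p = 0.00154). Mrc1 (-0.58, SE 0.08, adjusted p = 0.00103) and Clec4g (-0.61, SE 0.08, adjusted p = 0.00116) fell as well. Of 12 stellate cell and fibroblast markers 5 fell and none rose (4 without vehicle mice 3 and 4 and 3 with quantile normalization, median -0.37). Dcn, decorin, had 0.18, -0.18, 0.00, 0.07 and -0.07 against -0.79, -0.77, -0.83, -0.79 and -0.81 (-0.80, SE 0.09, adjusted p = 0.000331), a fall of the same size in each animal. The pericyte gene Rgs5 (-0.97, SE 0.13, adjusted p = 0.0011) and Lrat, which stores retinol (-0.71, SE 0.12, adjusted p = 0.00389, and 0.0535 with quantile normalization), fell.

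Of 12 Kupffer cell markers 5 fell and none rose, with a median of -0.34 and medians of -0.51 to -0.18 in the 5 CMP013 mice and -0.30 to 0.16 in vehicle mice. The scavenger receptor Cd163 was at -0.59 (SE 0.12, adjusted p = 0.0103, and 0.07 with quantile normalization) and Csf1r at -0.58 (SE 0.11, adjusted p = 0.00723, and 0.0902 with quantile normalization). This count of 5 was 2 without vehicle mouse 4, 3 without CMP013 mouse 2, 4 or 5 or vehicle mouse 1, 2 or 5, 3 without vehicle mice 3 and 4, and 0 with quantile normalization. Of 9 monocyte and neutrophil markers 2 rose, S100a8 at 1.12 (SE 0.23, adjusted p = 0.0108, and 0.0617 without vehicle mice 3 and 4) and its partner S100a9 at 1.12 (SE 0.27, adjusted p = 0.0226). S100a9 was lost without CMP013 mouse 2 or vehicle mouse 5 (up to 0.0535) and without vehicle mice 3 and 4 together (0.0851), and with quantile normalization neither passed (0.127 for S100a8, 0.194 for S100a9). The part of these markers in the other gene groups was not tested. None of 10 T and NK cell, 7 cholangiocyte or 5 adipocyte markers passed. Of 9 B cell, 5 erythroid and 6 pancreatic markers 1, 3 and 1 passed (1, 3 and 1 without vehicle mice 3 and 4, and 1, 2 and 1 with quantile normalization), and the B cell count was 2 without CMP013 mouse 5. Of 11 hepatocyte markers 2 fell and none rose (1 called without vehicle mice 3 and 4 and 1 with quantile normalization, median -0.15), with Pck1 at -0.64 (SE 0.10, adjusted p = 0.00202).

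**Figure D5:**
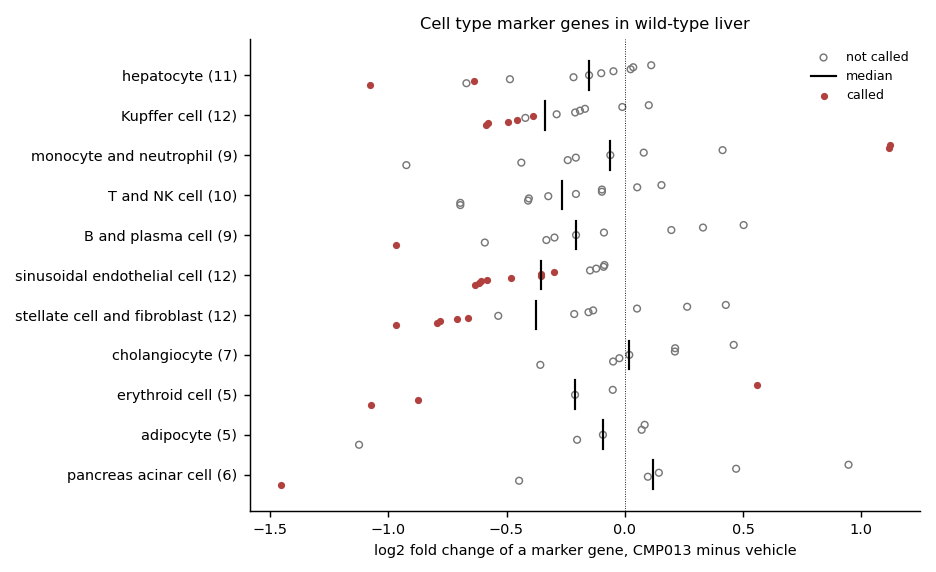
Each point is a marker gene placed by its log2 fold change in WT liver, CMP013 minus vehicle, in rows by cell type with the number measured in parentheses, filled where called, and a black bar marks the row's median. The medians of the Kupffer, endothelial and stellate rows lie between -0.37 and -0.34, and the called points in these rows are all below 0.

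Genes of the inhibitor's own target pathway were called at 3 of 14 (21.4%), near the 17.4% of all genes. Of 14 genes for BACE1, γ-secretase, their substrates and the proteases that degrade amyloid peptides, 1 rose and 2 fell (2 called without vehicle mice 3 and 4 and 2 with quantile normalization), in a list with a median of -0.16. Bace1 lay between -0.15 and 0.09 in vehicle mice and had -0.25, -0.24, -0.53, -0.19 and -0.69 in CMP013 mice (-0.38, SE 0.12, adjusted p = 0.0555), without overlap of the groups but short of the threshold, and 1 of its 4 probe sets was called lower. The amyloid-degrading proteases went opposite ways. Ide, insulin-degrading enzyme, had 0.06, -0.10, 0.07, 0.00 and -0.02 against 0.59, 0.66, 0.60, 0.87 and 0.56 (0.65, SE 0.09, adjusted p = 0.0011), higher at all 5 of its probe sets. Mme, neprilysin, had 0.16, 0.07, -0.28, -0.22 and 0.15 against -1.61, -1.02, -1.34, -1.36 and -1.84 (-1.41, SE 0.16, adjusted p = 0.000481). App fell by 0.37 on the log2 scale (SE 0.09, adjusted p = 0.0176, 0.0562 without vehicle mice 3 and 4 and 0.191 with quantile normalization), and its 4 probe sets ranged from -0.54 to 0.75.

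About the share of this response that depends on the genotype, the difference between the WT and the PXR-KO response was tested on all 20 arrays. It passed at 4936 of all probe sets (11%) and at 13.5% of genes. At probe sets called in WT mice it passed at 3166 of 6480, a share that says nothing by itself, since the test of the difference uses the same WT arrays that chose them. The PXR-KO mice are of the C57BL/6NTac background by 1 label, so genotype and background cannot be told apart. Over all members of a list, called or not, the response differed at 21 of 39 interferon-stimulated genes, whose median was -0.03 in PXR-KO mice, and at 28 of 72 plasma protein genes, whose median there was -0.02. At heat shock chaperones it differed at 11 of 44 genes and at ER and secretory genes at 14 of 72. These lists are examples, and several others differed at larger shares than the heat shock and ER lists. Among those were iron handling genes (11 of 25) and autophagy and ubiquitin-like genes (15 of 36). Gsr (difference 1.52, adjusted p = 1.22e-07), Ccl9 (1.37, adjusted p = 4.18e-07) and Serpina11 (-2.54, adjusted p = 8.28e-05) responded more in WT mice. At Orm3 (0.67, adjusted p = 0.349), Wee1 (0.12, adjusted p = 0.844) and Slco1a4 (0.90, adjusted p = 0.195) the difference did not pass the test.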

How the data were processed

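Total liver RNA of each mouse was hybridized to 1 Affymetrix mouse genome array, with no technical replicate. The deposited values are log10 ratios that the authors made in Rosetta Resolver from each animal's intensity over the mean intensity of its genotype's vehicle group, and their background correction and probe set summary are not given in the sources used here. Values stop at 2 in size on the log10 scale, a limit that 7 values of the WT arrays reach. No intensities were used, so the signal behind a ratio is unknown, and the number of arrays limits the precision. All columns were mapped to samples by their titles (0 unmapped), and no column of the authors' own comparisons was used.

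The ratios were converted to log2. CMP013 and vehicle WT mice (5 and 5) were compared with limma 3.58.1 (lmFit and eBayes, R 4.3.3) over 45037 probe sets with Benjamini-Hochberg adjustment, and the genotype difference was an interaction term over all 20 arrays. Animals, not technical repeats, are the replicates. Of the probe sets, 34945 name 1 gene, 932 several and 9160 none. A gene is represented by 1 probe set that names it alone, one without an _s_ or _x_ suffix where there is one, and then the one of smallest SD over the PXR-KO vehicle mice. There were 45 lists by function, 11 of cell type markers and 4 of the groups given by counts alone. The members and lists were chosen with earlier results of these data known. The genes named are the highest and lowest log2 fold changes without overlap, the largest and most certain called members of each list, the most and least even genes changed at least 2-fold, the receptors PXR and CAR, and the BACE1 list, and further genes were named only as holders of a promoter motif. From these 277 probe sets 143 are printed. Gadd45g and Car14 are named beside them and are left out of the counts over printed genes.

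In simulated data with 100 probe sets changed at each size, limma recovered 47% at a log2 change of 1 and 85% at 2, with 10 false calls. The simulated noise was independent and normal, and far fewer probe sets were changed than the 6480 called in the data. The recovered shares therefore do not carry over to these data. Promoter sequences are those of RefSeq (GRCm38.p6, 32851 promoters of 27025 genes). Python 3.11.15, numpy 2.4.6, pandas 2.3.3 and matplotlib 3.10.9 were used for summaries and figures. The alternatives were a shift of arrays to a common median, quantile normalization, trended robust variances, array weights, all 4 groups in one fit, a replicate block, a test against a minimum change, a filter on noisy probe sets, other ways to represent a gene, and leaving out animals.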

Additional observations from a re-analysis of the deposited data

Results flagged for a closer look

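Among 344 sets of 5 values tested, 1 animal stood apart from the other 4 in 23, and chance alone gives about 1 in 20. In CMP013 mice the values that stood apart were 1.38 for Aprt in mouse 5, 0.95 for Cds2 in mouse 4, 1.82 for Gsr in mouse 2, 0.71 for Igfbp2 in mouse 5, -0.97 for Ldha in mouse 2, 0.97 for Tkfc in mouse 1 and -3.37 for Zfp36l2 in mouse 5, all as log2 ratios. In vehicle mice they were 0.28 for Abcc3 in mouse 1, 0.12 for Acad8 in mouse 3, -0.14 for Car8 in mouse 4, -0.90 for Pla2g12a in mouse 4, 0.20 for Ubxn4 in mouse 4, -0.33 for Dhcr7 in mouse 5 and 0.13 for Hao1 in mouse 5. Vehicle mouse 2 stood apart at 6 genes, with -0.34 for Akr1d1, 0.17 for Clec4g, 0.31 for Dynll1, 0.33 for Lrat, 0.12 for Slc40a1 and -1.45 for Slco1a4.

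The median log2 ratio of the xenobiotic P450 genes was -0.090 in CMP013 mouse 2 and that of the periportal genes -0.42 in CMP013 mouse 5, each apart from the other 4 treated mice. The SD of the log2 ratios over all probe sets was 0.704 in CMP013 mouse 5, above the other treated arrays.

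The response differed between WT and PXR-KO mice, by the interaction term of the fit on all 20 arrays, at 3166 of the probe sets called in WT mice. Among called list members it differed at 16 interferon-stimulated genes, 25 plasma protein genes, 9 heat shock chaperone genes and 14 ER and secretory genes. These members were called on the same WT arrays that the difference uses, so their counts have no background to be read against.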

How the results depend on the processing

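Of 6480 probe sets called, 1366 changed at least 2-fold, 3931 were past 0.32 on the log2 scale in all 5 CMP013 mice and 3166 differed from PXR-KO mice, and 568 list members were called. With quantile normalization these counts were 1752, 489, 1555, 648 and 210, and the cause was not tested. Without vehicle mice 3 and 4, which leaves fewer samples, 3308 were called, 1867 of them differed from PXR-KO mice, and 307 list members were called. A test against a change of 0.32 called 1335, an evenness threshold of 1.5-fold left 1617 in all 5 mice, and with only the 75% least noisy probe sets 886 changed at least 2-fold. Leaving out each animal in turn gave 4758 to 5955 called, 1224 to 1342 at least 2-fold, 3491 to 4279 in all treated mice, 2345 to 2809 that differed and 447 to 519 list members. With arrays shifted to a common median, trended robust variances, array weights or all 4 groups in one fit, and for list members with other ways to represent a gene, these counts stayed within 1.5 times their values.

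Replicate numbers did not pair the samples: same-numbered animals correlated at -0.24 to 0.07, and 0 of 5 treated mice correlated best with their own number. With the number as a replicate block 3026 probe sets, 1406 differences and 300 list members were called.

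No result reversed its direction. Of the 141 printed genes that were called, 25 lost the call with quantile normalization, 9 with the replicate block, 29 in the test against a change of 0.32, 6 without vehicle mice 3 and 4, 3 with all 4 groups in one fit and 1 with trended variances, and 4 (Adamtsl5, Nr1i3, Sult3a1 and S100a9) without at least 1 animal. The number of arrays and the missing intensities limit what can be said of dim genes.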
